A study of Mus musculus with 21 samples.

Results

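The comparison set SOX2-rescued mouse embryonic stem cells grown in 2i against the same cells grown in serum and LIF (SL). Its members are the 6 deposited libraries of SOX2-rescued cells, 4 in 2i and 2 in SL, out of 21 libraries in the series, and all 16443 deposited genes were compared. The cells are 2TS22C, a mouse embryonic stem cell line in which, per the labels, endogenous SOX2 was silenced and a lentivirus supplied SOX2 in its place, with doxycycline (DOX) given in both media. The labels give the same line and treatment in both groups, so the medium is the labelled difference, but 2 of the 4 2i libraries and no SL library belong to the second deposited set. Here 2i means 2 inhibitors, one of the kinase MEK and one of the kinase GSK3, added to the serum and LIF medium. Libraries of untransduced 2TS22C cells (NTC, labelled WT, no DOX listed) served to compare the effect of the medium between lines. So did libraries of cells carried by SOX17FNV, a modified SOX17, itself an endoderm factor (FNV), and of cells carried by miniSOX, a factor named but not described in the labels. Both rescue lines had endogenous SOX2 silenced and received DOX. The promoter of the lentivirus, the age of the cultures, and whether a rescued line is 1 clone or a pool are not given in the sources used here.

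In mouse embryonic stem cells, LIF acts through STAT3 to maintain self-renewal, while autocrine FGF4 acts through MEK and ERK to prepare the cells for differentiation. Blocking MEK lowers ERK target genes, and blocking GSK3 stabilises beta-catenin, which relieves repression by TCF7L1 and can activate Wnt targets through other TCF factors. Cells in 2i are known for high and even expression of naive pluripotency genes, low expression of the de novo DNA methyltransferases and low expression of early lineage genes.

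The deposited values are whole numbers whose sorted list is nearly the same in every library, as after a normalisation between libraries, and they are called normalised values here. In each sentence they stand in the order replicate 1, replicate 2, p21 and p31 for 2i and replicate 1 and 2 for SL. Replicates 1 and 2 came in a first set of deposited libraries, and p21 and p31 came in a second one, whose titles call them biological replicates 2 and 3. Whether replicates 1 and 2 are separate cultures is not stated, so p-values reflect only how far these libraries differ, and that spread may be technical. Over 3378 genes at intermediate to high values, the SD of the log2 difference was 0.112 between replicates 1 and 2 in 2i, 0.297 between the replicates in SL and 0.281 between p21 and p31. It was 0.498 and 0.605 between 2i replicate 1 and p21 or p31. Library totals ran from 14044316 to 14047262, nearly equal in the deposited table, so the read depth is unknown here. Unless stated otherwise, a change is a log2 change (2i minus SL) ± SE from limma on log2(value + 1), fitted over all 21 libraries with a term for the deposited set, and a gene counts as changed at an adjusted p (Benjamini-Hochberg) under 0.05.

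Sox2, on chromosome 3, had 1509, 1251, 939 and 947 in 2i against 1389 and 921 in SL. Its groups overlapped and it did not pass (log2 change 0.04 ± 0.38, adjusted p = 0.945). Reads of the rescue factor and of the endogenous gene are not separated in these values. Sox17 stayed between 2 and 6 in the 6 libraries. The summed value of 6 embryonic stem cell markers (Pou5f1, Nanog, Sox2, Zfp42, Sall4 and Esrrb) ran from 47466 to 54459 in 2i and from 28788 to 29923 in SL. For 8 fibroblast or feeder markers the sum was 184 to 245 in 2i and 180 to 226 in SL, for 3 measured primitive endoderm markers 83 to 118 and 268 to 345, and for 6 trophectoderm markers 26 to 209 and 142 to 156. The sums of 2 measured primitive streak markers were 61 to 131 and 4 to 9, and those of 2 measured neuroectoderm markers 0 to 6 and 17 to 25. The deposited list lacks Gata4, Sox7 and Foxa2 of endoderm, T and Mesp1 of the streak, and Sox1 and Neurog2 of neuroectoderm. Every gene kept in it reaches at least 21 in 2 of the 21 libraries, so these sums cover only the markers that were kept. Of the markers measured outside the stem cell set, Fabp7 alone was at 0 in all 6 libraries. In bulk RNA, fewer cells of a type and less RNA per cell cannot be told apart.

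Between media, 7381 of 16443 genes changed (44.9%), 3675 higher in 2i (22.3%) and 3706 lower (22.5%), and 3277 of the changed genes (19.9% of all) did so by at least 2-fold, 1727 upward and 1550 downward. The median log2 change over all genes was 0. In 7716 genes (46.9%) the 4 libraries in 2i and the 2 in SL did not overlap. With the first-deposit SOX2 libraries alone, 2 in each medium, 6857 genes changed, and 5844 of them had also changed in the same direction in the fit over all libraries. When the first-deposit replicates were averaged to 1 sample per group, which leaves a single SL value that is assumed to vary like the other groups, 3408 genes changed, 3357 of them also called with the same sign before. The higher calls include 192 genes, 5.22% of them, out of 422 mostly predicted or low genes whose values kept 1 common profile across all 21 libraries, each library within 0.2 on the log2 scale of it. That profile lay at 0.907 to 1.18 of a gene's mean in the 2i libraries and 0.855 to 0.958 in SL, a median log2 change of 0.34. No gene named here is among them, and without them 3458 genes of 16021 were higher and 3669 lower. The shares given here are the background for the gene groups that follow: a list with a share near 22.3% higher or 22.5% lower stands at the background.

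**Figure D1:**
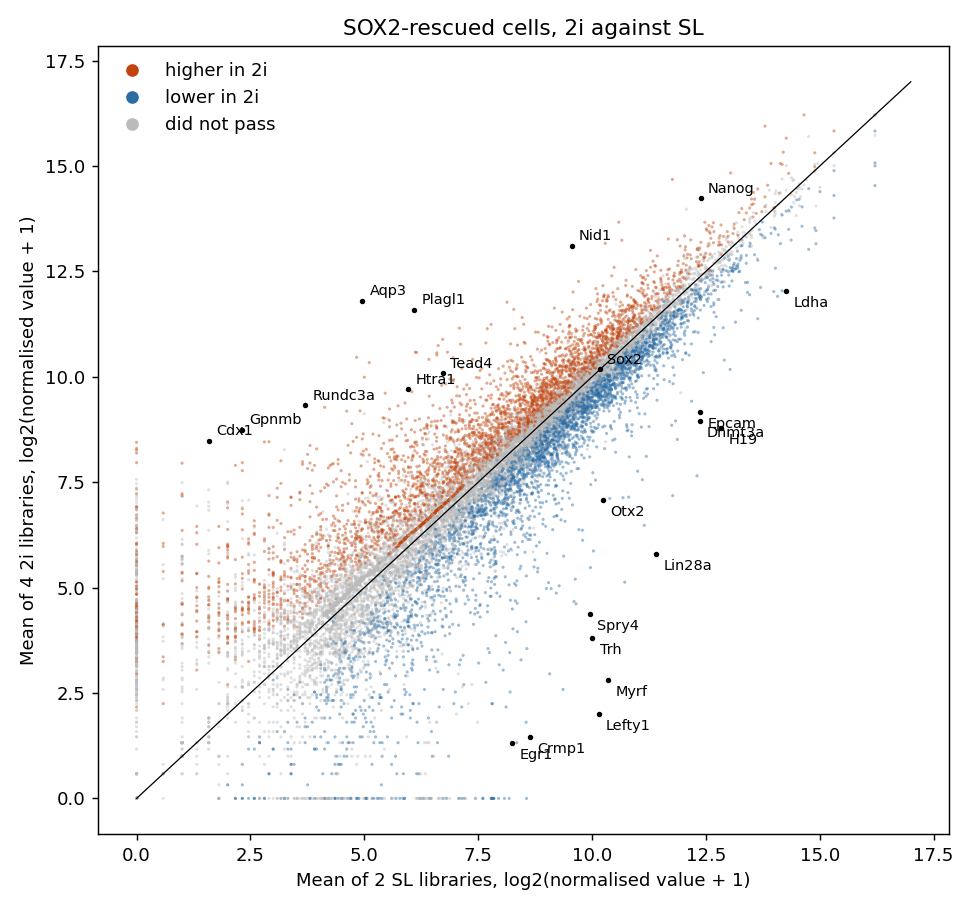
Mean normalised value of each gene in the 2 SL libraries (horizontal) and the 4 2i libraries (vertical) of SOX2-rescued cells, both on log2(value + 1) axes, with 1 point per gene and changed genes in colour. The labelled genes other than Sox2 lie far from the diagonal line of equal values, with Aqp3 and Plagl1 above it and Lin28a and Lefty1 below it. Sox2, which did not pass, lies close to the line.

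The targets and feedback inhibitors of ERK fell together. Of 16 ERK feedback and ETS targets, 14 fell and 0 rose (limma, 0 also at an unadjusted p under 0.05), with a median log2 change of -1.64 against 0 over all genes. Spry4, a Sprouty inhibitor of receptor tyrosine kinase signalling, had 17, 15, 28 and 19 in 2i against 992 and 987 in SL. The groups were far apart, with a ratio of the SL mean to the 2i mean of 50.1 (log2 change -5.82 ± 0.50, adjusted p = 5.68e-07). Dusp6, the ERK phosphatase on chromosome 10, 99263231 to 99267489, plus strand, had 51, 55, 120 and 102 in 2i against 814 and 861 in SL (log2 change -3.70 ± 0.54, adjusted p = 7.71e-05). The early response gene Ier3 had 25, 28, 30 and 26 in 2i against 166 and 182 in SL (log2 change -2.64 ± 0.22), with little difference among its 4 2i libraries. Dusp4, a nuclear ERK phosphatase, had 70, 98, 4 and 4 in 2i against 450 and 396 in SL (log2 change -3.50 ± 0.75, adjusted p = 0.00154). The p21 and p31 libraries lay far below replicates 1 and 2, and all 4 lay below SL. The FGF-responsive ETS factor Etv4 had 777, 808, 823 and 958 in 2i against 2602 and 2621 in SL (log2 change -1.93 ± 0.56). Its relative Etv5 fell by less, with 3897, 3935, 3513 and 4137 in 2i against 5154 and 5573 in SL (log2 change -0.40 ± 0.13, adjusted p = 0.0198). Spred1, a further inhibitor of RAS signalling, had 573, 572, 843 and 841 in 2i against 1119 and 1152 in SL (log2 change -0.91 ± 0.10). The FGF receptor antagonist Il17rd did not pass, with 306, 317, 422 and 473 in 2i against 526 and 436 in SL (log2 change -0.36 ± 0.24, adjusted p = 0.239). Nor did the phosphatase Dusp7, with 86, 86, 39 and 42 in 2i against 71 and 117 in SL (log2 change -0.22 ± 0.22). Etv4 and Etv5 did not pass with the first-deposit replicates averaged or without SL replicate 2, Etv4 not without SL replicate 1, and Etv5 not without 2i replicate 1 or 2 or with p21 and p31 as the only 2i libraries. The number of members that fell was 9 with p21 and p31 as the only 2i libraries and 6 with the averaged replicates. The log2 change with p21 and p31 alone was -6.40 for Dusp4 and -0.43 for Spred1, and with the first-deposit SOX2 libraries alone Il17rd passed (-0.62).

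**Figure D2:**
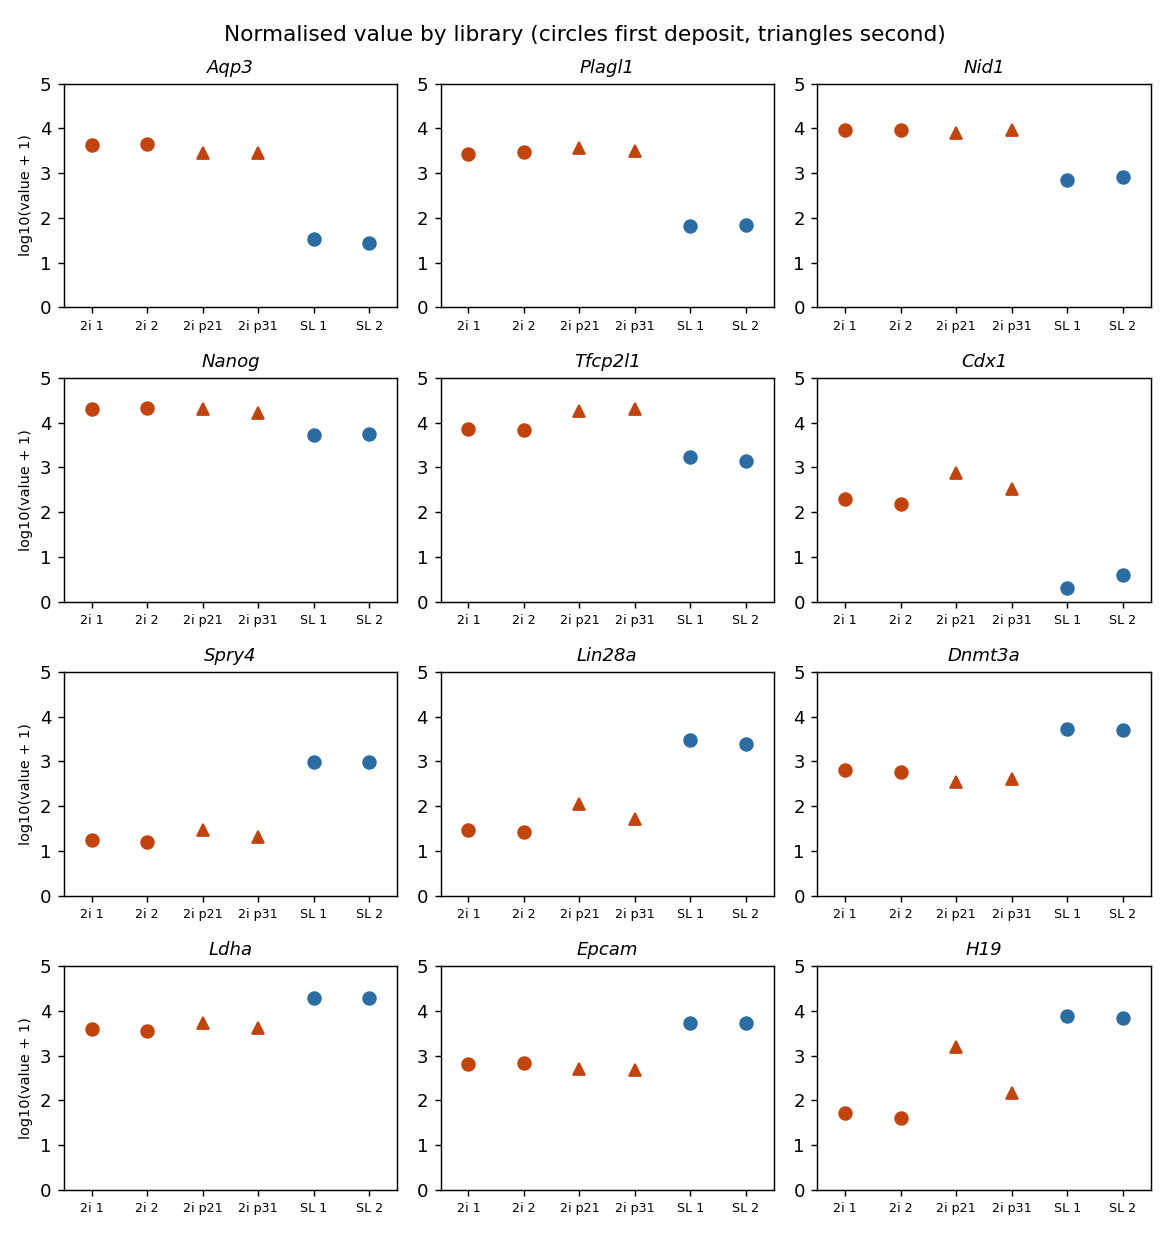
Normalised value of 12 genes in each SOX2-rescued library, with 1 panel per gene and a log10(value + 1) axis, where circles are first-deposit libraries and triangles second-deposit ones. The upper 2 rows hold genes that were higher in 2i and the lower 2 rows genes that were lower, and in each panel the 2i libraries stand apart from the SL libraries.

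Immediate early genes split. Of 15 measured, 2 rose, 3 fell and 10 did not pass, with a median log2 change of -0.02. Egr1, a zinc finger factor induced by ERK through SRF and ELK, had 1, 1, 3 and 1 in 2i against 436 and 169 in SL (log2 change -7.03 ± 0.60, adjusted p = 5.73e-07). Both SL libraries were high although they differed from each other, and no 2i library exceeded 3. The oncogene Myc had 1, 1, 3 and 1 in 2i against 92 and 101 in SL (log2 change -5.56 ± 0.72, adjusted p = 2.7e-05), again with no overlap. Ier2 also fell (692, 793, 1186 and 973 in 2i against 2054 and 1694 in SL). Atf3, a stress-induced factor, went the other way with 113, 108, 140 and 90 in 2i against 18 and 26 in SL (log2 change 2.50 ± 0.38, adjusted p = 0.00011). Jund rose with 3863, 3820, 2395 and 2151 in 2i against 1972 and 1257 in SL (log2 change 1.37 ± 0.29). Fos had 21, 24, 8 and 1 in 2i against 7 and 3 in SL and did not pass (log2 change 1.54 ± 0.66, adjusted p = 0.0724). Among 15 genes of the MEK and ERK cascade itself, 6 rose, 5 fell and 4 did not pass, with a median of -0.01. The ligand Fgf4 had 3404, 3358, 1962 and 1900 in 2i against 1880 and 1694 in SL (log2 change 0.93 ± 0.13), where replicates 1 and 2 were high and p21 and p31 close to SL. Its receptor Fgfr2 had 19, 24, 85 and 108 in 2i against 105 and 104 in SL (log2 change -1.90 ± 0.34), with p21 and p31 again at the level of SL. The kinase Braf fell, 1265, 1261, 958 and 1211 in 2i against 2151 and 2208 in SL (log2 change -1.01 ± 0.20). Jund, Fgf4 and Fgfr2 did not pass with p21 and p31 as the only 2i libraries, where the cascade list gave 2 higher and 3 lower. Fos passed with the first-deposit SOX2 libraries alone (2.05) and without p31, and the immediate early list gave 4 higher without p31 and 5 in the fit of 12 first-deposit libraries.

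Naive pluripotency genes were mostly higher in 2i. Of 20 members, 13 rose, 2 fell and 5 did not pass, with a median log2 change of 1.05, and 11 of the rises were at least 2-fold. The homeobox factor Nanog, on chromosome 6, 122707489 to 122714633, plus strand, had 19699, 21188, 19699 and 16427 in 2i against 5155 and 5574 in SL (log2 change 2.01 ± 0.14, adjusted p = 7.38e-08). Each 2i library was well above both SL libraries. Klf4, a Krüppel-like factor and STAT3 target, had 3580, 3647, 5266 and 4048 in 2i against 937 and 597 in SL (log2 change 2.41 ± 0.23). Tfcp2l1, another STAT3 target, had 7061, 6871, 18500 and 19699 in 2i against 1709 and 1370 in SL (log2 change 2.43 ± 0.33, adjusted p = 4.23e-05), with p21 and p31 well above replicates 1 and 2 and all 4 above SL. The T-box factor Tbx3 had 3819, 3862, 3325 and 3301 in 2i against 1316 and 1082 in SL (log2 change 1.66 ± 0.11). Prdm14, which represses the de novo methyltransferases and FGF signalling, had 431, 443, 492 and 385 in 2i against 92 and 99 in SL (log2 change 2.20 ± 0.13, adjusted p = 2.01e-08). The 2 groups were apart for both genes, by several times the spread among the 2i libraries. The junction protein Jam2 had 3681, 3682, 2932 and 2394 in 2i against 505 and 647 in SL (log2 change 2.65 ± 0.21). The secreted phosphoprotein Spp1 had 11820, 12489, 9105 and 5331 in 2i against 1755 and 1471 in SL (log2 change 2.84 ± 0.17). Esrrb, an orphan receptor that GSK3 inhibition derepresses, rose by less: 8734, 8734, 7307 and 6370 in 2i against 5994 and 5573 in SL (log2 change 0.52 ± 0.13, adjusted p = 0.0043). Of the 2 members that fell, Nr0b1 (Dax1) had 297, 301, 193 and 133 in 2i against 617 and 697 in SL (log2 change -1.89 ± 0.69, adjusted p = 0.0367). The other was the LIF-responsive homeobox gene Gbx2, with 21, 16, 37 and 28 in 2i against 127 and 130 in SL (log2 change -3.12 ± 0.69, adjusted p = 0.00198). Those that did not pass were Zfp42 (Rex1), with 6247, 5995, 11389 and 12489 in 2i against 8272 and 8272 in SL, Nr5a2, Tcl1, Dppa3 and the demethylation enzyme Tet2. For Nr5a2 the values were 438, 479, 1211 and 1496 in 2i against 470 and 444 in SL, so that p21 and p31 lay above all other libraries while replicates 1 and 2 lay among those of SL. Nr0b1 did not pass at a pseudocount of 0.1, without p21, without p31 or without either SL replicate, and Nr0b1, Esrrb and Gbx2 did not with the first-deposit replicates averaged. With p21 and p31 as the only 2i libraries Esrrb did not pass (0.24), Gbx2 became -1.96, Nr5a2 passed (1.56) and Tet2 (0.79) and Zfp42 (0.53) passed upward. In the first-deposit SOX2 libraries alone Zfp42 passed downward (-0.43), Tet2 passed upward (0.26), and Nr0b1 fell by less (-1.13).

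General pluripotency genes were more often lower than higher. Of 15 members, 2 rose, 7 fell and 6 did not pass, with a median of -0.64. Pou5f1 (Oct4) had 10050, 10739, 12486 and 16422 in 2i against 7522 and 7059 in SL (log2 change 0.65 ± 0.17, adjusted p = 0.00513). The TGF-beta family ligand Gdf3 had 886, 1007, 780 and 651 in 2i against 357 and 421 in SL (log2 change 1.27 ± 0.12). Lin28a, which blocks let-7 microRNA maturation and lies on chromosome 4, 134003330 to 134018841, minus strand, had 29, 26, 113 and 50 in 2i against 3034 and 2394 in SL. The SL mean was 49.8 times the 2i mean (log2 change -6.51 ± 0.37, adjusted p = 1.25e-08), with p21 and p31 somewhat above the other 2i libraries. The chromatin factor Utf1 had 817, 892, 593 and 438 in 2i against 4411 and 4902 in SL (log2 change -2.36 ± 0.25). The RNA-binding protein gene L1td1 had 976, 955, 2659 and 2715 in 2i against 5994 and 6554 in SL (log2 change -2.32 ± 0.33). Sall4 had 1227, 1146, 1422 and 1804 in 2i against 1591 and 1389 in SL, which overlapped, and did not pass (adjusted p = 0.0953). Pou5f1 did not pass with the first-deposit replicates averaged, and with p21 and p31 as the only 2i libraries L1td1 became -1.22.

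Genes of the formative and primed states were lower in 2i. Of 18 members, 13 fell, 12 of them at least 2-fold, 1 rose and 4 did not pass, and the median was -1.90. Otx2, a homeobox factor of the transition out of the naive state, had 85, 79, 163 and 212 in 2i against 1166 and 1272 in SL (log2 change -3.63 ± 0.28, adjusted p = 2.23e-07). The POU factor Pou3f1 (Oct6) had 5, 9, 2 and 4 in 2i against 148 and 63 in SL (log2 change -4.50 ± 0.70). The helix-loop-helix factor Tcf15 had 60, 49, 18 and 16 in 2i against 727 and 859 in SL (log2 change -4.05 ± 0.44, adjusted p = 5.31e-06). In each of the 3 genes every 2i library lay below both SL libraries. The member that rose was Tcf7l1, the TCF repressor of naive genes, with 1610, 1655, 1871 and 2716 in 2i against 720 and 738 in SL (log2 change 1.20 ± 0.21, adjusted p = 0.000342). The de novo DNA methyltransferases are part of this group. Dnmt3a, on chromosome 12, 3806007 to 3914443, plus strand, had 647, 581, 343 and 399 in 2i against 5395 and 5154 in SL (log2 change -3.37 ± 0.26, adjusted p = 2e-07). Dnmt3b had 681, 617, 1341 and 1563 in 2i against 3481 and 3681 in SL (log2 change -2.25 ± 0.28). Their cofactor Dnmt3l had 344, 300, 628 and 573 in 2i against 3513 and 3375 in SL (log2 change -2.90 ± 0.39). Over the 15 genes of DNA methylation and demethylation, 7 fell, 2 rose and 6 did not pass, with a median of 0.03. The maintenance methyltransferase Dnmt1 had 4137, 4232, 4454 and 5154 in 2i against 4087 and 3966 in SL (log2 change 0.03 ± 0.08, adjusted p = 0.815). Its partner Uhrf1 rose, 5573, 5573, 5395 and 5573 in 2i against 3646 and 4137 in SL (log2 change 0.48 ± 0.07). The dioxygenase Tet1 fell, 3537, 3646, 5475 and 5330 in 2i against 8024 and 7059 in SL (log2 change -0.94 ± 0.19). From p21 and p31 alone the log2 change was -1.31 for Dnmt3b and -0.48 for Tet1, and Tet1 did not pass with the first-deposit replicates averaged. The DNA methylation list gave 1 higher without 2i replicate 2 or SL replicate 2.

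Wnt and beta-catenin targets moved in both directions, at shares not far above those of all genes (22.3% higher and 22.5% lower). Of 15 measured, 5 rose (33.3%), 4 fell (26.7%) and 6 did not pass, with a median of -0.36. The homeobox gene Cdx1, a direct beta-catenin target, had 193, 154, 761 and 324 in 2i against 1 and 3 in SL (log2 change 6.48 ± 0.57, adjusted p = 7.63e-07). The 2i libraries differed several-fold among themselves but each stood far above SL. Sp5, a zinc finger target, had 7, 9, 42 and 8 in 2i against 1 and 0 in SL (log2 change 2.67 ± 0.58), low in every library. Wif1, a secreted Wnt inhibitor, had 86, 88, 68 and 36 in 2i against 20 and 11 in SL (log2 change 2.28 ± 0.39). The receptor ligase Rnf43 had 16, 13, 13 and 9 in 2i against 5 and 6 in SL (log2 change 1.47 ± 0.47). Lef1, a TCF family factor, fell, with 18, 17, 22 and 12 in 2i against 46 and 78 in SL (log2 change -2.05 ± 0.42, adjusted p = 0.00112). So did the Dishevelled inhibitor Nkd2, with 3, 11, 10 and 11 in 2i against 36 and 96 in SL (log2 change -3.24 ± 0.86). Axin2, the feedback scaffold that is the usual readout of the pathway, had 77, 44, 465 and 333 in 2i against 148 and 138 in SL. Replicates 1 and 2 in 2i were below SL and p21 and p31 above it, and the gene did not pass (log2 change -0.87 ± 0.36, adjusted p = 0.0636). Notum, a secreted Wnt deacylase, had 40, 30, 46 and 57 in 2i against 51 and 50 in SL and Tcf7 434, 430, 490 and 396 in 2i against 362 and 389 in SL, both overlapping and not passing. Within the 10 genes of the glycogen and GSK3 axis, 4 rose, 2 fell and 4 did not pass, with a median of 0.36. Ctnnb1, which encodes beta-catenin, had 8467, 8736, 9720 and 9720 in 2i against 21188 and 14822 in SL (log2 change -0.90 ± 0.14, adjusted p = 0.00015), so its transcript was lower in all 4 2i libraries. Sp5, Wif1, Rnf43, Lef1, Nkd2 and Ctnnb1 did not pass with p21 and p31 as the only 2i libraries, a fit of 4 libraries. Sp5, Rnf43 and Nkd2 did not pass in the first-deposit SOX2 libraries alone or with these averaged, nor did Rnf43 without either SL replicate or Nkd2 without SL replicate 2, and Axin2 passed without p21 with a log2 change of -1.02. The Wnt target list gave 3 higher and 2 lower without SL replicate 1, 3 higher and 1 lower without SL replicate 2, and 3 higher and 0 lower with p21 and p31 alone. The glycogen and GSK3 list gave 1 lower without any one of the SOX2 libraries other than p31, and 0 lower with p21 and p31 alone. At a pseudocount of 10 Sp5 (0.74) and Rnf43 (0.87) did not pass.

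Of 14 LIF receptor and STAT3 pathway genes 5 rose (35.7%), 4 fell (28.6%) and 5 did not pass, with a median of 0.14. Pim1, a kinase gene induced by STAT3, had 3134, 3108, 1553 and 1509 in 2i against 653 and 459 in SL (log2 change 2.27 ± 0.24, adjusted p = 4.51e-06). Replicates 1 and 2 were about 2 times p21 and p31, and all 4 were above SL. Stat3 itself had 1447, 1488, 1223 and 798 in 2i against 573 and 685 in SL (log2 change 1.10 ± 0.16). The feedback inhibitor Socs3 had 1805, 1953, 2284 and 487 in 2i against 724 and 494 in SL (log2 change 1.47 ± 0.46, adjusted p = 0.0186), where p31 lay at the level of SL. The receptor Lifr fell, 976, 936, 1146 and 1040 in 2i against 1375 and 1317 in SL (log2 change -0.61 ± 0.16). In the Nodal pathway 6 of 11 measured members fell, 2 rose and 3 did not pass, with a median of -1.06. Lefty1, a secreted Nodal antagonist and target, had 4, 4, 4 and 0 in 2i against 1182 and 1089 in SL (log2 change -7.62 ± 0.89, adjusted p = 1.04e-05), with at most 4 in any 2i library. Nodal had 279, 242, 318 and 317 in 2i against 697 and 603 in SL (log2 change -1.06 ± 0.29). The SMAD corepressor Skil had 976, 932, 827 and 1055 in 2i against 3404 and 3265 in SL (log2 change -1.76 ± 0.14, adjusted p = 2.12e-07). Lefty2 had 1115, 1198, 790 and 39 in 2i against 3771 and 4138 in SL, lower in each 2i library than in SL but with p31 far below the rest, and it did not pass (log2 change -2.08 ± 0.97, adjusted p = 0.0954). Socs3 did not pass without SL replicate 2 or without 2i replicate 1 or 2, Nodal not without SL replicate 1, and Socs3, Lifr and Nodal not with the first-deposit replicates averaged. The LIF and STAT3 list gave 3 higher and 2 lower without 2i replicate 2, 2 lower without 2i replicate 1 and 2 higher without SL replicate 2. With p21 and p31 as the only 2i libraries Stat3, Socs3 and Lifr did not pass and Pim1 became 1.48, while Lefty2 passed without p21 and in the first-deposit SOX2 libraries alone (-1.77).

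In the BMP pathway with the Id genes, 3 of 12 genes in the table rose (25.0%), 3 fell (25.0%) and 6 did not pass, with a median of -0.16. These shares are near those of all genes. Id1, an inhibitor of helix-loop-helix factors and BMP target, had 0, 3, 4 and 4 in 2i against 104 and 64 in SL (log2 change -5.16 ± 0.76, adjusted p = 7.78e-05). The inhibitory SMAD gene Smad6 had 83, 88, 32 and 20 in 2i against 8 and 5 in SL (log2 change 3.48 ± 0.41, adjusted p = 1.08e-05). The groups did not overlap in either gene. Of 12 Notch pathway genes, 1 rose, 4 fell and 7 did not pass, with a median of -0.68. The member that rose was the repressor Hes1, with 839, 862, 458 and 456 in 2i against 195 and 150 in SL (log2 change 2.09 ± 0.25). The ligand Jag2 fell, with 139, 118, 57 and 93 in 2i against 511 and 636 in SL (log2 change -2.00 ± 0.37). Smad6 did not pass with p21 and p31 as the only 2i libraries, and Jag2 did not with the first-deposit replicates averaged. Without SL replicate 2 the Notch list gave 2 lower.

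G1 cyclins and CDK inhibitors moved in both directions: 5 of 17 rose (29.4%), 7 fell (41.2%) and 5 did not pass, with a median of -0.18. The CDK inhibitor Cdkn1a (p21) had 3185, 3134, 2463 and 2267 in 2i against 1114 and 864 in SL (log2 change 1.64 ± 0.20, adjusted p = 1.53e-05). Cdkn1b (p27) had 1569, 1574, 645 and 613 in 2i against 450 and 388 in SL (log2 change 1.86 ± 0.19), in which replicates 1 and 2 were more than 2 times p21 and p31. Cdkn1c (p57), an imprinted inhibitor, fell, 11, 7, 7 and 4 in 2i against 302 and 226 in SL (log2 change -5.36 ± 0.49, adjusted p = 1.01e-06). Ccnd1 (cyclin D1), often an ERK target, rose, 1461, 1438, 740 and 741 in 2i against 596 and 531 in SL (log2 change 1.19 ± 0.19). Ccne1 (cyclin E1) fell, 625, 589, 886 and 815 in 2i against 1399 and 1496 in SL (log2 change -1.23 ± 0.21). Among 17 p53 targets 2 rose, 4 fell and 11 did not pass, with a median of -0.01. The 2 that rose were Cdkn1a and Gdf15, a secreted stress cytokine. The G1 list gave 4 lower without SL replicate 2. Ccnd1 did not pass with p21 and p31 as the only 2i libraries, and the log2 change became 0.59 for Cdkn1b and -0.77 for Ccne1.

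Integrated stress response genes were more often higher than lower. Of 19 measured, 8 rose (42.1%), 1 fell and 10 did not pass, with a median of 0.55. Ddit3 (CHOP), a transcription factor of prolonged stress, had 615, 615, 503 and 351 in 2i against 85 and 83 in SL (log2 change 3.22 ± 0.53, adjusted p = 0.000197). The stress factor Nupr1 had 711, 764, 503 and 430 in 2i against 51 and 41 in SL (log2 change 4.18 ± 0.58, adjusted p = 5.22e-05). Gdf15 had 563, 637, 166 and 106 in 2i against 39 and 21 in SL (log2 change 4.29 ± 0.53), with replicates 1 and 2 several-fold above p21 and p31 and all 4 above SL. Atf5 had 387, 443, 554 and 488 in 2i against 127 and 37 in SL (log2 change 2.87 ± 0.53). The member that fell was the leucine sensor Sesn2, with 1162, 1119, 2493 and 2744 in 2i against 3482 and 3580 in SL (log2 change -1.32 ± 0.22). Atf5 did not pass in the first-deposit SOX2 libraries alone, and with p21 and p31 as the only 2i libraries the log2 change became 2.17 for Gdf15 and -0.43 for Sesn2.

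Glycolysis genes were lower in 2i. Of 19 measured, 10 fell, 8 of them at least 2-fold, 2 rose and 7 did not pass, with a median of -0.73. Pdk1, the kinase that keeps pyruvate out of the mitochondrial cycle, had 508, 493, 535 and 444 in 2i against 3725 and 3579 in SL (log2 change -2.71 ± 0.17, adjusted p = 3.02e-08). Lactate dehydrogenase Ldha had 3819, 3536, 5396 and 4048 in 2i against 19699 and 19699 in SL (log2 change -2.12 ± 0.32). Phosphoglycerate kinase Pgk1 had 4409, 4233, 4048 and 2697 in 2i against 19697 and 14818 in SL (log2 change -2.00 ± 0.22). Enolase Eno1 had 4232, 4581, 4667 and 3357 in 2i against 18497 and 18497 in SL (log2 change -2.10 ± 0.14, adjusted p = 5.42e-08). The SL mean was 4.69 times the 2i mean for Ldha, 4.49 for Pgk1 and 4.39 for Eno1. The lactate exporter Slc16a3 (MCT4) had 52, 50, 229 and 21 in 2i against 2954 and 1582 in SL (log2 change -5.24 ± 0.85). The glucose transporter Slc2a1 had 1065, 1051, 1988 and 1286 in 2i against 7059 and 8269 in SL (log2 change -2.71 ± 0.38). Of the 2 genes that rose, hexokinase Hk1 had 2209, 2268, 1893 and 2161 in 2i against 451 and 451 in SL (log2 change 2.26 ± 0.17, adjusted p = 1.35e-07). The other was the neuronal-type glucose transporter Slc2a3, with 76006, 76006, 76006 and 25019 in 2i against 14818 and 13688 in SL (log2 change 2.55 ± 0.40). The sorted values of any 2 libraries differed by at most 3, and at the top of the table they move in coarse steps. Equal values there, such as 76006 for Slc2a3, stand for the same rank and may hide smaller differences. Cholesterol synthesis genes were also more often lower than higher: 11 of 20 fell, 2 of them at least 2-fold, 1 rose and 8 did not pass, with a median of -0.53. Srebf2, which encodes the factor that activates these genes, was the member that rose, 9720, 9105, 8467 and 8736 in 2i against 7061 and 7310 in SL (log2 change 0.35 ± 0.10). Averaging the first-deposit replicates left 2 of the 11 falls in the cholesterol list and 9 of the 10 in the glycolysis list. Slc16a3, Slc2a3 and Srebf2 did not pass with p21 and p31 as the only 2i libraries, and Srebf2 did not without SL replicate 1 or with the averaged replicates.

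**Figure D3:**
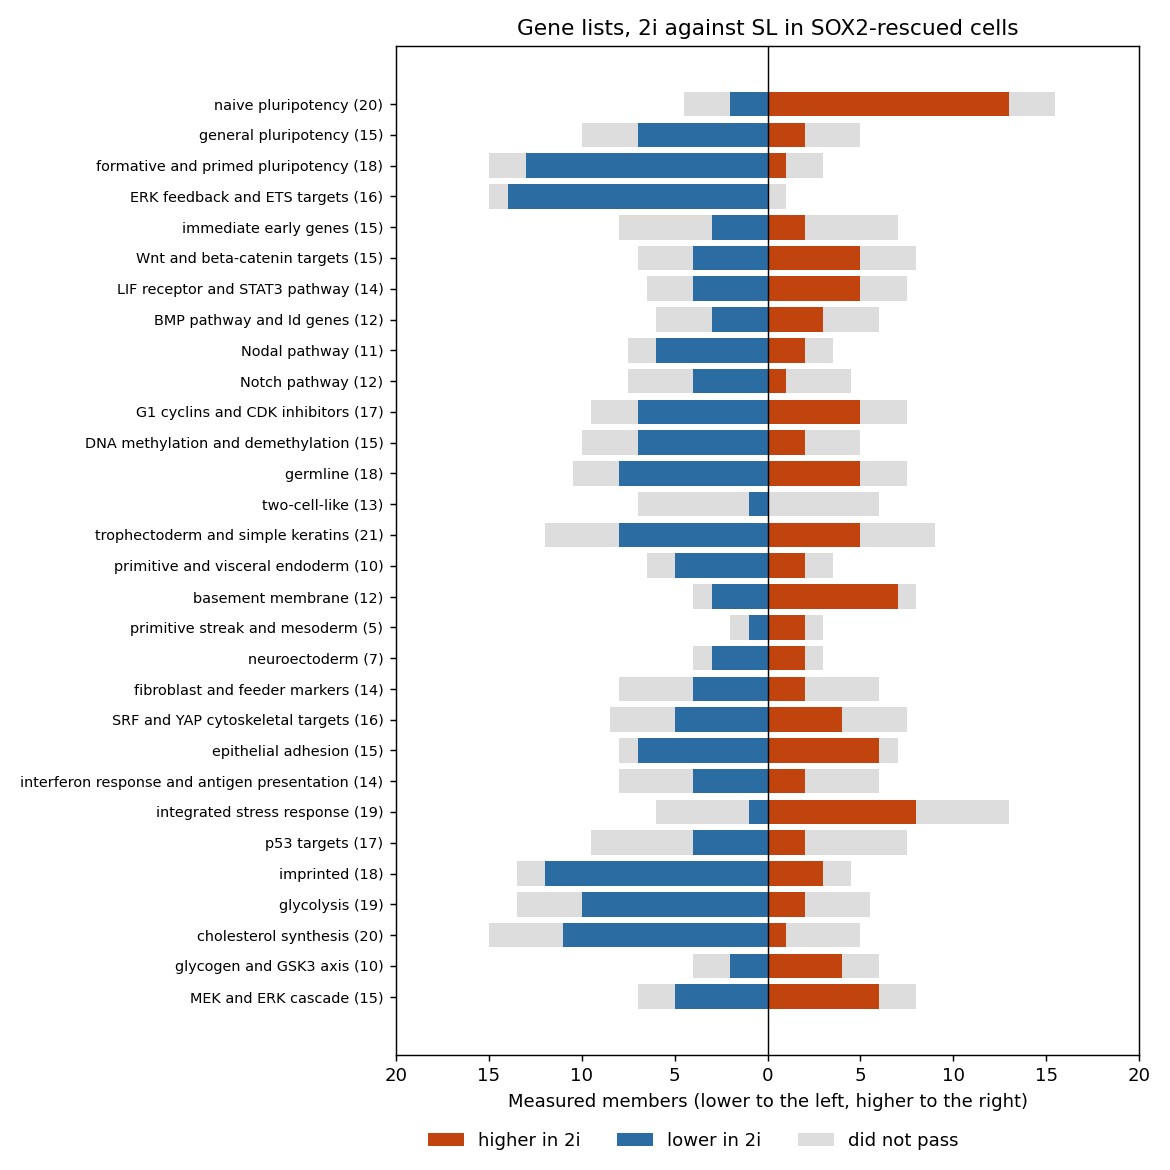
Number of measured members of each of 30 gene lists that were higher in 2i (right of 0), lower in 2i (left of 0) or did not pass (grey, split evenly to both sides of the coloured bars) at an adjusted p under 0.05. Formative and primed, ERK feedback and imprinted genes lie mainly to the left, with 13, 14 and 12 members lower, and naive pluripotency lies mainly to the right, with 13 members higher.

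Epithelial genes changed in both directions: of 15 adhesion genes 6 rose, 7 fell and 2 did not pass, with a median of -0.28. Epcam, an epithelial adhesion molecule on chromosome 17, 87635979 to 87651129, plus strand, had 656, 681, 501 and 466 in 2i against 5331 and 5266 in SL (log2 change -2.96 ± 0.10, adjusted p = 1.09e-10). The tight junction gene Cldn6 fell, 16, 22, 37 and 20 in 2i against 390 and 264 in SL (log2 change -3.75 ± 0.58). Its relative Cldn4 rose, 2602, 2677, 927 and 956 in 2i against 637 and 556 in SL (log2 change 2.00 ± 0.20, adjusted p = 2.2e-06), with replicates 1 and 2 more than 2 times p21 and p31. E-cadherin, Cdh1, rose slightly, 8734, 9102, 10739 and 14818 in 2i against 6370 and 5994 in SL (log2 change 0.61 ± 0.16). Of 21 trophectoderm and simple keratin genes 5 rose, 8 fell and 8 did not pass, with a median of -0.77. The keratin gene Krt18 fell, 56, 70, 183 and 103 in 2i against 493 and 706 in SL (log2 change -2.83 ± 0.42). Krt19 fell too, 5, 2, 50 and 24 in 2i against 77 and 281 in SL (log2 change -4.70 ± 0.56). So did the T-box factor Eomes, 13, 10, 27 and 27 in 2i against 112 and 109 in SL (log2 change -3.29 ± 0.35, adjusted p = 4.05e-06). The TEAD factor Tead4 rose, 1219, 1395, 930 and 792 in 2i against 100 and 110 in SL (log2 change 3.71 ± 0.36, adjusted p = 1.95e-06). Gata2 had 881, 988, 49 and 8 in 2i against 43 and 41 in SL. Replicates 1 and 2 were far above SL, p21 was close to SL and p31 below it, and the gene did not pass (log2 change 2.49 ± 1.31, adjusted p = 0.138). The trophoblast factor Gata3 rose, 12, 14, 54 and 130 in 2i against 4 and 2 in SL. Tfap2a, another, also rose, 37, 41, 295 and 529 in 2i against 11 and 14 in SL. In both, p21 and p31 lay above replicates 1 and 2. Krt19 did not pass with p21 and p31 as the only 2i libraries, Cdh1 and Tfap2a not with the first-deposit replicates averaged, Gata3 not in the first-deposit SOX2 libraries alone, where Gata2 passed (4.44), and Tfap2a not without either SL replicate. Set against SL, p21 and p31 alone gave a log2 change of 0.66 for Cldn4, 1.03 for Cdh1, -1.99 for Eomes, 4.45 for Gata3 and 4.88 for Tfap2a. Gata2 also passed without p31. With p21 and p31 as the only 2i libraries the trophectoderm and keratin list gave 5 higher and 3 lower. Of the 5 rises and 8 falls above, 4 and 2 remained there.

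Of 10 measured genes of primitive and visceral endoderm, 2 rose, 5 fell and 3 did not pass, with a median of -1.34. The GATA factor Gata6 had 40, 57, 94 and 65 in 2i against 165 and 108 in SL (log2 change -1.60 ± 0.40). The receptor Pdgfra had 37, 37, 22 and 23 in 2i against 174 and 157 in SL (log2 change -2.46 ± 0.28). The endocytic receptor Cubn had 107, 94, 128 and 148 in 2i against 418 and 449 in SL (log2 change -2.11 ± 0.18, adjusted p = 6.91e-07). All 3 fell. The endocytic adaptor Dab2 rose, 556, 549, 987 and 1379 in 2i against 244 and 232 in SL (log2 change 1.52 ± 0.26). Basement membrane genes, which endoderm also expresses, were more often higher, with 7 of 12 rising, 3 falling and 2 not passing, and a median of 0.68. Nid1 (nidogen 1, a linker of laminin and collagen IV, chromosome 13, 13437551 to 13512269, plus strand) had 9102, 9102, 8024 and 9102 in 2i against 697 and 808 in SL (log2 change 3.63 ± 0.17, adjusted p = 2.54e-09). The 2i mean was 11.7 times the SL mean. Sparc, a collagen-binding matrix protein, had 2818, 2932, 3208 and 2954 in 2i against 1405 and 1114 in SL (log2 change 1.19 ± 0.11). The collagen IV gene Col4a1 fell, 348, 352, 766 and 215 in 2i against 1981 and 1509 in SL (log2 change -2.82 ± 0.54). Of 14 measured fibroblast and feeder markers 2 rose, 4 fell and 8 did not pass, with a median of 0.16. Fibronectin, Fn1, rose, 22912, 22912, 30387 and 40741 in 2i against 7795 and 9102 in SL (log2 change 1.69 ± 0.27). Col1a2 fell, 9, 5, 15 and 5 in 2i against 40 and 47 in SL (log2 change -2.38 ± 0.37). Col1a1 stayed low in both media, 27, 25, 24 and 18 in 2i against 25 and 23 in SL (log2 change 0.27 ± 0.39, adjusted p = 0.613). Targets of SRF and YAP in the cytoskeleton gave 4 of 16 higher, 5 lower and 7 not passing, with a median of -0.05. Without SL replicate 1 the endoderm list gave 3 lower and the SRF and YAP list 2 higher, and without SL replicate 2 the SRF and YAP list gave 2 higher and 2 lower. Gata6, Col4a1 and Col1a2 did not pass with p21 and p31 as the only 2i libraries, where Dab2 became 2.29. Gata6 also did not pass at a pseudocount of 0.1, without SL replicate 1 or with the first-deposit replicates averaged.

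Imprinted genes were mostly lower: of 18 measured, 12 fell, 3 rose and 3 did not pass, with a median of -0.84. The noncoding RNA H19, on chromosome 7, 142575529 to 142578143, minus strand, had 52, 40, 1525 and 142 in 2i against 7795 and 6869 in SL (log2 change -6.59 ± 0.79, adjusted p = 1.61e-05). The p21 library stood far above the other 2i libraries and still below SL. Mest had 439, 427, 383 and 554 in 2i against 2660 and 2219 in SL (log2 change -2.84 ± 0.46). The retrotransposon-derived gene Peg10 had 1370, 1370, 2864 and 3579 in 2i against 7059 and 8024 in SL (log2 change -2.35 ± 0.22). Phlda2, a growth-restricting placental gene, had 6, 5, 3 and 1 in 2i against 50 and 82 in SL (log2 change -4.06 ± 0.62). Against that direction the zinc finger gene Plagl1 (Zac1), on chromosome 10, 13060504 to 13131694, plus strand, had 2715, 2896, 3579 and 3185 in 2i against 66 and 69 in SL (log2 change 5.21 ± 0.27, adjusted p = 5.77e-09). Its 2i mean was 45.8 times the SL mean. The adaptor Grb10 also rose, 1014, 1138, 687 and 637 in 2i against 327 and 296 in SL (log2 change 1.61 ± 0.33). Of 18 germline genes 5 rose, 8 fell and 5 did not pass, with a median of -0.09. The RNA-binding gene Dazl rose, 5995, 6371, 3863 and 2151 in 2i against 1716 and 1701 in SL (log2 change 1.51 ± 0.31). Tex19.1 fell, 247, 233, 561 and 569 in 2i against 1563 and 991 in SL (log2 change -2.40 ± 0.24). Of 13 measured genes of the 2-cell-like state 1 fell and 0 rose (limma, 2 lower and 0 higher at an unadjusted p under 0.05), with a median of -0.94. Interferon response and antigen presentation genes gave 2 of 14 higher, 4 lower and 8 not passing, with a median of -0.08. The membrane tether Bst2 was among those that fell, 281, 259, 212 and 112 in 2i against 1932 and 2170 in SL (log2 change -3.00 ± 0.49). Of 5 measured primitive streak and mesoderm genes 2 rose, 1 fell and 2 did not pass, with a median of 0.44. The homeobox gene Gsc had 27, 55, 104 and 73 in 2i against 0 and 0 in SL, above 0 only in 2i. Of 7 measured neuroectoderm genes 2 rose, 3 fell and 2 did not pass, with a median of -0.48. The adhesion gene Ncam1 rose, 476, 454, 127 and 123 in 2i against 50 and 49 in SL (log2 change 2.84 ± 0.47). The tubulin gene Tubb3 fell, 156, 204, 571 and 507 in 2i against 1521 and 1284 in SL (log2 change -2.95 ± 0.39). The germline list gave 3 higher without SL replicate 1, 1 without SL replicate 2 and 0 with p21 and p31 alone, and the neuroectoderm list 1 lower without either SL replicate. The 2-cell-like list gave 3 lower without 2i replicate 1, the streak list 1 higher without SL replicate 1 and the interferon list 1 higher without SL replicate 2. The imprinted list gave 8 lower with p21 and p31 alone and 6 with averaged replicates. H19 and Dazl did not pass with p21 and p31 as the only 2i libraries, and Grb10 and Dazl did not with the first-deposit replicates averaged. For p21 and p31 alone the log2 change was -1.23 for Peg10, -1.14 for Tex19.1, 1.32 for Ncam1 and -1.38 for Tubb3.

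The largest increases and decreases, with predicted genes left out, lay outside these lists for the most part. The rule that chose them required that the 2i and SL libraries did not overlap, so that separation is not a result. It also required a pass with the same sign in the fit of 12 first-deposit libraries. Aqp3, an aquaporin that carries water and glycerol (chromosome 4, 41092722 to 41098183, minus strand), had 4307, 4409, 2799 and 2781 in 2i against 33 and 27 in SL. Each 2i library was far above either SL library, and the ratio of the means was 119 (log2 change 7.18 ± 0.19, adjusted p = 8.06e-12). Gpnmb, a transmembrane glycoprotein of melanocytes and macrophages, had 347, 293, 665 and 408 in 2i against 5 and 3 in SL (log2 change 6.36 ± 0.44). Rundc3a, a RUN domain gene known from neurons (chromosome 11, 102393403 to 102402555, plus strand), had 722, 687, 456 and 692 in 2i against 15 and 9 in SL (log2 change 5.93 ± 0.25, adjusted p = 5.95e-10). Cd3g, a subunit of the T cell receptor complex, had 93, 91, 132 and 140 in 2i against 0 and 0 in SL. The EGF receptor ligand Btc (betacellulin) had 47, 44, 99 and 144 in 2i against 0 and 0 in SL. Both were listed at 0 in SL. The receptor tyrosine kinase Ltk had 100, 85, 42 and 34 in 2i against 1 and 0 in SL. Adam11, a noncatalytic ADAM protein, had 476, 405, 45 and 26 in 2i against 1 and 6 in SL, with p21 and p31 far below replicates 1 and 2 and still above SL. Cdx1, given above, Trim30b, Dnajc5b and Mst1 were also among the 12 largest increases. Trim30b had 73, 48, 58 and 81 in 2i against 0 and 0 in SL. Dnajc5b had 39, 68, 39 and 55 in 2i against 0 and 0 in SL, and Mst1 had 97, 99, 33 and 28 in 2i against 0 and 3 in SL. Adam11 did not pass with p21 and p31 as the only 2i libraries, and Trim30b did not without either SL replicate or with the first-deposit replicates averaged.

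Among the largest decreases, Crmp1, a collapsin response mediator of axon growth, had 1, 0, 1 and 5 in 2i against 374 and 420 in SL (log2 change -7.74 ± 0.76, adjusted p = 2.05e-06). Myrf, the membrane-tethered myelin regulatory factor (chromosome 19, 10208272 to 10240748, minus strand), had 8, 11, 4 and 1 in 2i against 1399 and 1223 in SL (log2 change -7.54 ± 0.48, adjusted p = 3.29e-08). The ratio of the SL mean to the 2i mean was 227 for Crmp1 and 218 for Myrf, and no 2i library came near SL. Trh, the precursor of thyrotropin-releasing hormone, had 11, 11, 20 and 10 in 2i against 1119 and 939 in SL (log2 change -6.49 ± 0.47). Evc, a ciliary regulator of Hedgehog signalling, had 6, 10, 3 and 1 in 2i against 559 and 757 in SL (log2 change -6.55 ± 0.45). The transglutaminase Tgm3 had 11, 0, 35 and 12 in 2i against 299 and 357 in SL. Rad51ap2 had 2, 3, 2 and 3 in 2i against 351 and 398 in SL, and the sensory neuron receptor Mrgprx2 had 2, 2, 1 and 1 in 2i against 383 and 267 in SL. The remaining places went to Egr1, Lefty1, Lin28a, H19 and an annotated second locus of Gcat (ENSMUSG00000116378). Gcat had 0, 0, 24 and 3 in 2i against 67 and 1007 in SL, with a wide difference between the SL libraries. Its symbol is shared with another identifier in the table, so reads may be split between near-identical copies. Mrgprx2 did not pass with the first-deposit replicates averaged, Gcat not with p21 and p31 as the only 2i libraries, and Tgm3 then became -3.92.

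The medium effect in SOX2-rescued cells was then compared with that in untransduced cells by the difference between the 2 log2 changes in the same fit. For 3095 genes (18.8%) the difference passed. In the fit restricted to first-deposit libraries 4963 genes passed, and with first-deposit replicates averaged 268. Htra1, a secreted serine protease (chromosome 7, 130936111 to 130985660, plus strand), rose in SOX2-rescued cells, with 955, 966, 752 and 653 in 2i against 73 and 50 in SL (log2 change 3.99 ± 0.16). In NTC cells it had 114, 141 and 92 in 2i against 183 and 201 in SL (log2 change -0.58 ± 0.16). The difference was 4.57 ± 0.22 (adjusted p = 1.37e-08). Rundc3a, given above for SOX2-rescued cells, was 114, 130 and 96 in 2i against 145 and 148 in SL in NTC cells (log2 change -0.19 ± 0.25, difference 6.11 ± 0.34, adjusted p = 9.37e-08). The metalloreductase Steap3 rose in SOX2-rescued cells, 507, 609, 402 and 496 in 2i against 182 and 149 in SL, and had a log2 change of -1.58 ± 0.14 in NTC cells. The actin-associated Afap1 rose as well, 516, 517, 432 and 526 in 2i against 123 and 119 in SL, and had a log2 change of -0.52 ± 0.12 in NTC cells. Sh3tc1, an endosomal adaptor, had 796, 670, 461 and 554 in 2i against 105 and 119 in SL in SOX2-rescued cells, where it rose, and a log2 change of -0.15 ± 0.13 in NTC cells. Camkk2, a calcium-dependent kinase upstream of AMPK, rose by less in SOX2-rescued than in NTC cells. It had 543, 603, 546 and 694 in 2i against 312 and 318 in SL in the former (log2 change 0.90 ± 0.11). In the latter it had 962, 927 and 890 in 2i against 80 and 94 in SL (log2 change 3.39 ± 0.12). With predicted genes and genes listed at 0 in steps left out, these 6 genes have the smallest adjusted p for this difference. Among genes of the lists, Axin2 had 378, 424 and 966 in 2i against 48 and 35 in SL in NTC cells, where every 2i library was above SL (log2 change 3.04 ± 0.37), and its difference was -3.91 ± 0.50 (adjusted p = 0.000146). Notum also rose in NTC cells (log2 change 2.83 ± 0.44, difference -3.52 ± 0.59, adjusted p = 0.00112). Ccnd1 rose far more in NTC cells, 1742, 2054 and 1261 in 2i against 58 and 56 in SL (log2 change 5.04 ± 0.20, difference -3.85 ± 0.26, adjusted p = 5.34e-07). The glycolysis genes Pgk1 and Pkm had log2 changes of -0.05 ± 0.22 and -0.21 ± 0.15 in NTC cells against -2.00 ± 0.22 and -1.79 ± 0.15 in SOX2-rescued cells. The differences were -1.95 ± 0.30 (adjusted p = 0.00056) and -1.58 ± 0.21 (adjusted p = 0.000196). In all, 11 of the 19 glycolysis genes passed this test against 18.8% of all genes. Of the ERK feedback genes Spry4 fell in both lines, by more in SOX2-rescued cells (difference -3.21 ± 0.68, adjusted p = 0.00483). Of the matrix genes Nid1 had, in NTC cells, 3056, 3034 and 1749 in 2i against 1395 and 1286 in SL (difference 2.66 ± 0.24, adjusted p = 7.84e-06). The NTC cells lack the transduction and the listed DOX treatment, so these cannot be told apart from the SOX2 source in the difference.

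**Figure D4:**
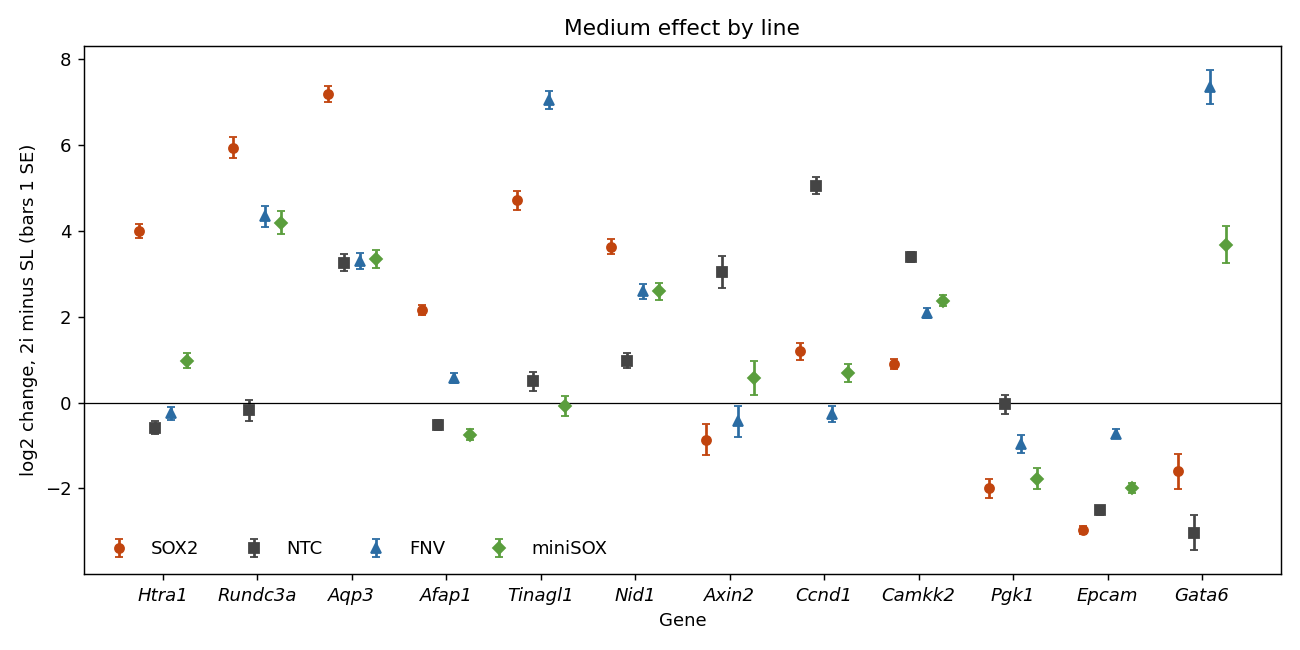
Log2 change between media (2i minus SL, points, with bars of 1 SE) of 12 genes in the 4 lines, from the same fit. Htra1, Rundc3a and Afap1 are high in SOX2-rescued cells and near or below 0 in NTC, Axin2 and Ccnd1 are highest in NTC, and Gata6 is highest in FNV cells.

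Against FNV cells the medium effect differed for 3416 genes (20.8%), and against miniSOX cells for 1963 genes (11.9%). With first-deposit replicates averaged the counts were 332 and 308, and without SOX2 SL replicate 2 the count against miniSOX was 1208. Gata6 rose in FNV cells from SL to 2i, 251, 278, 373 and 408 in 2i against 1 and 0 in SL (log2 change 7.34 ± 0.40), and fell in SOX2-rescued cells, with a difference of -8.95 ± 0.53 (adjusted p = 1.69e-07). Epcam fell in SOX2-rescued cells by more than in FNV cells, 2698, 3326, 2268 and 1962 in 2i against 5331 and 4582 in SL (log2 change -0.72 ± 0.10, difference -2.24 ± 0.13, adjusted p = 1.69e-07). The adaptor gene She rose in SOX2-rescued cells, 233, 214, 189 and 152 in 2i against 70 and 72 in SL, and had a log2 change of -1.82 ± 0.16 in FNV cells. Mymx, a small fusion peptide gene of muscle, had 1007, 1018, 227 and 280 in 2i against 1198 and 1385 in SL in SOX2-rescued cells. Its called fall was small (log2 change -0.50, limma adjusted p = 0.014), because the deposit term takes up much of the low p21 and p31 values. Without that term the log2 change was -1.35 and did not pass. Mymx had log2 changes of 2.44 ± 0.15 in FNV and 3.22 ± 0.16 in miniSOX cells. Aqp3 rose by less in FNV (log2 change 3.28 ± 0.19) and miniSOX cells (log2 change 3.34 ± 0.20). The differences were 3.90 ± 0.25 (adjusted p = 3.93e-07) and 3.84 ± 0.28 (adjusted p = 1.51e-06). In NTC cells it rose by 3.26 ± 0.19 (difference 3.93 ± 0.26, adjusted p = 3.15e-07). Htra1 differed from both as well, by 4.24 ± 0.21 (adjusted p = 1.91e-08) and 3.01 ± 0.23 (adjusted p = 2.76e-06). The matrix gene Tinagl1 rose in SOX2-rescued cells, 603, 722, 575 and 428 in 2i against 24 and 23 in SL, and was 647 and 667 in 2i against 675 and 713 in SL in miniSOX cells (difference 4.78 ± 0.32, adjusted p = 8.58e-07). The zinc transporter Slc30a2 rose from 39 and 44 to higher values in 2i in SOX2-rescued cells (log2 change 3.64 ± 0.14), and its difference from miniSOX cells was 2.95 ± 0.21 (adjusted p = 1.48e-06). Afap1 differed from miniSOX cells by 2.91 ± 0.17 (adjusted p = 2.06e-07). Of the 20 naive pluripotency genes, 15 passed the test of the difference from FNV cells, 6 that from NTC and 6 that from miniSOX cells. Nanog, for example, had 18500, 19699, 18500 and 13693 in 2i against 19699 and 18500 in SL in FNV cells (log2 change 0.04 ± 0.14, difference 1.97 ± 0.19, adjusted p = 1.21e-05). All 3 comparisons use the same 6 SOX2 libraries. Within SOX2-rescued cells the fall of Mymx was not called without SL replicate 2, in the first-deposit SOX2 libraries alone or with these averaged, and it became -2.35 with p21 and p31 as the only 2i libraries.

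The 4 libraries in 2i were not alike. Of 12784 genes that reached a normalised value of 50 in at least 1 of them, 987 (7.72%) had both second-deposit libraries at least 2-fold above, or both at least 2-fold below, both first-deposit ones. SL has no second-deposit library of this line, so culture, time and library preparation cannot be told apart there. With only these 2 libraries set against SL, 4101 genes changed, and 3079 of these had the same call and direction in the fit over all libraries. Axin2 took opposite signs, with a log2 change of -1.28 in the first-deposit libraries and 1.45 for p21 and p31, and it passed in each. Gata2 had 4.44 and -1.02, Tfap2a 1.57 and 4.88, Cldn4 2.15 and 0.66, Fgfr2 -2.24 and -0.12, L1td1 -2.70 and -1.22, and Lin28a -6.57 and -5.14. The ERK target Spry4 (-5.87 and -5.36), Nid1 (3.60 and 3.51), Plagl1 (5.36 and 5.62), Epcam (-2.98 and -3.45) and Aqp3 (7.14 and 6.50) differed between the sets by at most 0.64 on the log2 scale. These are 5 picked examples, and other large changes were less even. The fit over all libraries uses a single deposit shift per gene, common to all lines. Its log2 change can therefore lie outside the values of both sets, as for Plagl1 and Aqp3, whose fitted values are given above. With p21 and p31 as the only 2i libraries the log2 change was -6.40 for Dusp4, 3.24 for Adam11 and -3.97 for H19. In the fit over all libraries it was -3.50, 6.47 and -6.59. The p21 and p31 libraries also differed from each other in places, as in Lefty2, Socs3 and H19.

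**Figure D5:**
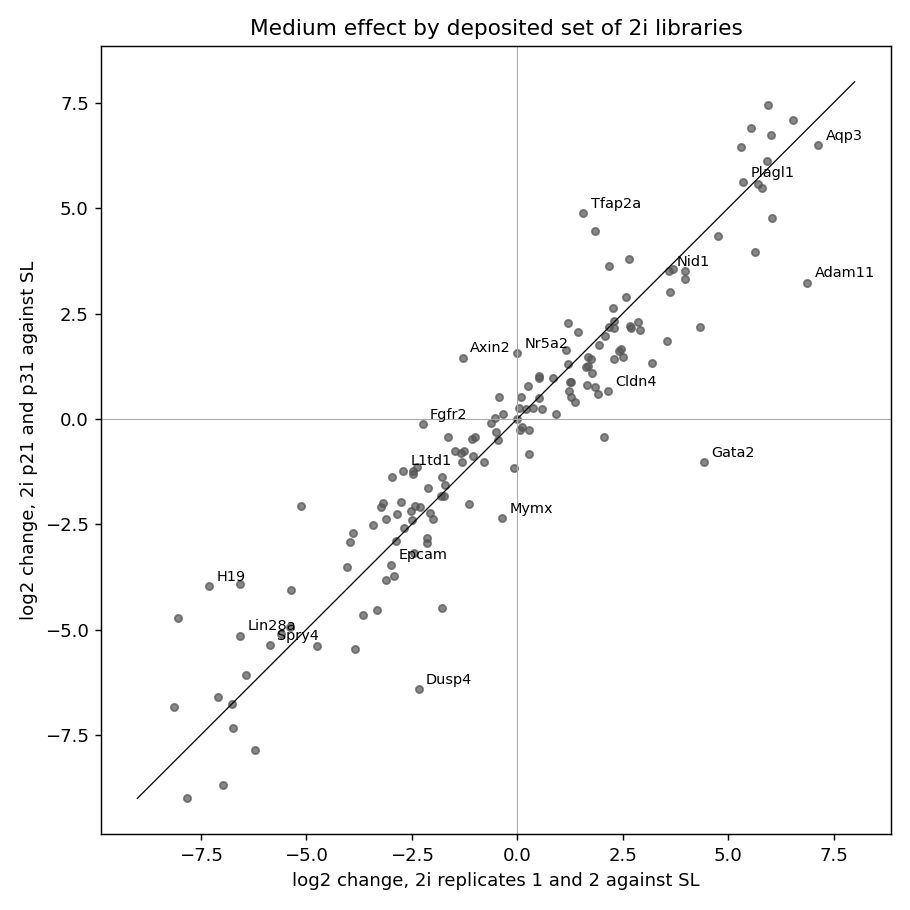
Log2 change of SOX2-rescued cells in 2i against SL, from the first-deposit 2i libraries (horizontal) and from p21 and p31 (vertical), both against the same 2 SL libraries, for genes named in the text, with a line of equal change. Dusp4, Adam11, H19, Axin2, Gata2, Tfap2a, Nr5a2 and Fgfr2 are among the genes that lie off the line, and Spry4, Nid1, Plagl1, Epcam and Aqp3 lie near it. Because the SL libraries are shared, the changes on the 2 axes are not independent.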

How the data were processed

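The series holds RNA-seq libraries made from total RNA, per the labels, 21 in 8 groups of line and medium, of which the 6 libraries of SOX2-rescued cells carry the comparison. The mouse build mm10, RSEM and Bowtie2 2.0 are named in the submitters' processing notes; the annotation, the strand setting and the normalisation step are not given in the sources used here. The authors deposited 1 filtered table of 16443 genes whose whole numbers are treated here as a score, not as raw counts, because their sorted values differ by at most 3 between libraries. A count test was therefore not used, and no depth or counting interval could be derived. Every gene identifier was found in GENCODE M21, which gave the chromosomes.

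Values were log2 transformed with a pseudocount of 1. Genes that did not reach 1 in 2 libraries were to be left out, and none were. limma 3.58.1 in R 4.3.3 was fitted over all 21 libraries with a term for each group and for the deposited set (12 residual degrees of freedom, intensity trend, robust moderation, two-sided), with Benjamini-Hochberg adjustment over all genes at 0.05. The same fit was run on simulated data with independent libraries and a deposit shift common to all lines, as the fit assumes. That run cannot show the effect of technical replicates or of deposit shifts that differ between lines. Differences between lines are contrasts of the same fit.

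The members and lists were chosen with earlier results of these data known. Of 154 named genes, 132 follow a rule. It takes Sox2, Sox17 and the 12 largest increases and decreases with a mean of at least 50 and no overlap. These largest changes also had to pass with the same sign in the fit of 12 first-deposit libraries. Added to them are up to 6 genes per list that passed, by smallest adjusted p, and up to 5 that did not. The 6 smallest adjusted p per line difference complete the rule. The other 22 were named after their values were seen. Alternatives covered the deposit term, libraries, averaging, replicate block, pseudocount, filter, scaling, and moderation without its trend and robust settings. Fits of the 6 SOX2 libraries with a deposit term, of a deposit term per line, and without genes sharing 1 profile were chosen after seeing the data. Some genes that the rule names are not reported here. Promoter and protein sequences were not used here.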

Additional observations from a re-analysis of the deposited data

Results flagged for a closer look

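In 15 of 154 named genes, 1 of the 4 2i libraries of SOX2-rescued cells stood apart from the other 3 by more than Dixon's 95% critical value of 0.829. Chance alone marks about 1 in 20 groups of 4 libraries that vary alike, which these do not, since replicates 1 and 2 differ far less from each other than from p21 and p31. In 12 of the 15 the library was p21, with normalised values of 3 for Egr1, 3 for Myc, 5395 for Uhrf1, 42 for Sp5, 8024 for Nid1, 19697 for Pkm, 229 for Slc16a3, 1525 for H19, 456 for Rundc3a, 20 for Trh, 24 for the annotated second locus of Gcat and 432 for Afap1. The p31 library stood apart in Lefty1, listed at 0, and in Slc2a3, at 25019, and replicate 1 did in Nkd2, at 3. The values of Egr1, Myc, Lefty1 and Nkd2 are so low that the library differs by a few units. In 6 of the 15, Egr1, Myc, Uhrf1, Lefty1, Nid1 and Slc2a3, the other 3 libraries share 1 value, so that any difference of the remaining library meets the criterion.

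The medium effect differed between lines by a test of the difference itself (limma, Benjamini-Hochberg adjusted). It passed for 3095 genes between SOX2-rescued and NTC cells, for 3416 between SOX2-rescued and FNV cells and for 1963 between SOX2-rescued and miniSOX cells. On the log2 scale, as the SOX2-rescued effect minus that of NTC, the difference was 6.11 for Rundc3a, 4.57 for Htra1, 3.28 for Steap3, 2.68 for Afap1, 2.88 for Sh3tc1 and -2.49 for Camkk2. Against FNV cells it was 3.90 for Aqp3, -8.95 for Gata6, -2.24 for Epcam, 4.24 for Htra1, 3.28 for She and -2.94 for Mymx. Against miniSOX cells it was 3.84 for Aqp3, 3.01 for Htra1, 2.91 for Afap1, -3.72 for Mymx, 4.78 for Tinagl1 and 2.95 for Slc30a2. Htra1 is therefore listed in all 3 comparisons, and these share the SOX2 libraries.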

How the results depend on the processing

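Of the 135 named genes called in SOX2-rescued cells, 0 changed direction under any alternative run. Many of them were named for a small adjusted p or a large change in the main fit, so they may be steadier than other called genes. Over all genes, 3079 of the 7381 calls held with the same sign with p21 and p31 as the only 2i libraries. With median centring, or with moderation without its trend and robust settings, 0 lost the call. The same held for repeated quantile normalisation, which changes values that are already nearly matched between libraries only a little. The filter left out 0 genes, so the fit with no filter is the main fit again. Genes listed at 0 in steps or sharing 1 profile include 0 of the 135, and leaving them out cost 0 calls. A filter at a mean of 50 left 14 of the 135 untested, Egr1, Myc, Sp5 and Id1 included, and 0 of those tested lost the call. The number that lost the call was 10 with no deposit term, 6 in the first-deposit SOX2 libraries alone, 27 with p21 and p31 as the only 2i libraries, 33 in the 6 SOX2 libraries with no deposit term and 23 with first-deposit replicates averaged. At a pseudocount of 0.1 or 10 the number was 2 each, and 6 and 13 other log2 changes moved by over 1.5 times, mainly where SL or 2i values are near 0: at 10, Myc became -3.38, Id1 -3.05, Pou3f1 -2.96, Phlda2 -2.62 and Gata3 1.15, and at 0.1 Sp5 became 4.62. The count of 7381 changed genes became 4101 with p21 and p31 as the only 2i libraries, 3356 in the 6 SOX2 libraries with no deposit term, 3408 with averaged replicates and 5563 to 7259 when a library was left out; these fits have fewer libraries, or no deposit term. It was 6653 in the 6 libraries with a deposit term and 7127 without the genes sharing a profile.

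The count against NTC (3095) became 1421 with no deposit term, 4963 in first-deposit libraries and 268 with averaged replicates, and 2279 to 3233 with a library left out. Against FNV (3416) it became 1799, 5600 and 332 in the same order, and 2401 to 3856. Against miniSOX (1963) it became 875 with no deposit term, 308 with averaged replicates, 3346 with a deposit term for each line and 1208 to 2175; the first-deposit fit holds no miniSOX library and gives no value. The cause of these moves was not tested.

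With the replicate number as a block in the numbered libraries, 8566 genes changed in SOX2-rescued cells, 5284 differed from NTC, 5980 from FNV and 4690 from miniSOX. The labels do not pair the numbers. Over 12133 genes the difference of replicate 1 and 2 in 2i correlated with that in SL at 0.0858. Whether libraries of the same number share more than the number was not tested. With unknown depth, the counting error of low values, such as those of Nkd2 or Lefty1 in 2i, could not be estimated.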
